A study of Mus musculus with 6 samples.

Results

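Unstimulated macrophages lacking Akirin2 were compared with unstimulated wild-type macrophages on 1 Affymetrix mouse expression array a side, 2 of the 6 arrays of the series. The quantity described is the log2 value of the Akirin2 KO array minus that of the wild-type array, and it was read for 13587 of 18194 genes. Each gene was represented by the probe set with the highest mean over the 6 arrays among those annotated to that gene alone, and it was kept where at least 1 array reached its own median over all probe sets, called the floor here. Of the 13587 genes, 11918 reached the floor on an unstimulated array. The other 4 arrays hold cells of both genotypes after 2 h and 4 h of lipopolysaccharide (LPS, a cell wall component of Gram-negative bacteria) at 100 ng/ml, and the design asks how macrophages without Akirin2 respond to it.

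Wild-type cells came from wildtype mice and KO cells from LysM-Cre+;Akirin2fl/fl mice, both of the strain C57BL/6 x 129Sv, and the unstimulated cells had no LPS (0 h). All were macrophages elicited into the peritoneal cavity with thioglycollate, a sterile irritant. In the KO mice a Cre recombinase made from the lysozyme locus cuts the floxed Akirin2 gene in myeloid cells, so that other cells of the same wash keep it. The labels name no Cre in the wild-type mice, and do not say how many mice gave a sample, whether mice were pooled, or whether the same mice served for all 3 samples of a genotype. With 1 array per condition there is no replicate error at 0 h. Every 0 h difference below is a size without a test, and genotype, mouse and cell preparation cannot be told apart in it.

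Akirin2 is a small nuclear protein without a DNA-binding domain that is known as a bridge between transcription factors and chromatin remodelling complexes in inflammatory gene induction, and as a factor in the nuclear import of proteasomes. Resting macrophages already carry out programmes that need no bacterial product: they keep up a low tonic expression of interferon-stimulated antiviral genes, adjust cholesterol synthesis to their sterol content, clear debris and remodel matrix. A comparison at 0 h reads these steady programmes and the level from which LPS induction starts.

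Akirin2 itself checks the labels. Its log2 value was 7.43 in wild-type and 5.18 in KO cells at 0 h, 21.0% of the wild-type level, and at 2 h and 4 h it was 7.47 and 7.33 in wild-type against 5.54 and 4.91 in KO. The groups did not overlap. A second Akirin2 probe set lay near background and read 3.04 and 3.05. Akirin1, the paralog, read 9.93 and 9.88, while Lyz2, the lysozyme gene from which the Cre is made, read 12.20 and 12.01. Since RNA of whole samples was measured, fewer cells of a type and less RNA per cell cannot be told apart in any value here.

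Both unstimulated samples carried the macrophage label in their RNA. Among 18 pan-macrophage markers above the floor, Csf1r (the receptor for the macrophage growth factor) read 12.60 in wild-type and 12.48 in KO, Mpeg1 11.84 and 11.82, Cd68 10.92 and 10.89, and C1qb 12.37 and 12.25. The summed level of all 18, on the log2 scale, was 14.95 and 14.81, a sum led by the highest genes. The genes named here are among the highest and show presence, while 17 of the 18 were below 0, the lowest at -1.28. Adgre1, which encodes F4/80, read 8.96 and 8.51. Gata6, the defining factor of resident peritoneal macrophages, lay near background at 2.95 and 3.05.

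Over the 13587 genes the 0 h values of the genotypes were close. The Pearson correlation of the 2 arrays across genes, which are not independent replicates, was 0.985, and 84.8% of genes differed by less than 0.5. The median difference was -0.074, against 0.0043 at 2 h and 0.030 at 4 h, and 60.0% of genes were lower in KO. Thus 106 genes (0.78%) were at least 2-fold higher in KO and 156 (1.15%) at least 2-fold lower, 262 (1.93%) in all. At 2 h the same rule gave 129 genes (0.949%), of which 66 (0.486%) were above wild-type and 63 (0.464%) below, and at 4 h 197 genes (1.45%), 113 (0.832%) above and 84 (0.618%) below. The unstimulated arrays held 7 genes higher by 4-fold or more and 4 lower.

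The split between higher and lower genes depended on how the arrays were scaled. Higher genes made up 40.5% of the 262. With each array centred on the median of the genes above the floor, which puts the median difference at 0.087, 196 genes were higher and 85 lower, a share of 69.8%. Quantile normalization applied again gave 145 and 115 (55.8%), and centring the difference by expression level gave 161 and 92 (63.6%). The 106 higher genes all passed under both forms of centring, and 104 of them under the repeated quantile normalization. Of the 156 lower genes, 85, 91 and 115 passed under centring, level centring and repeated quantile normalization. Representing a gene by the mean of its probe sets left 36 higher and 66 lower. Just inside the limit lay Ptn (1.0015) and Slc18a1 (1.0023) on the higher side and Ccdc124 (-1.0025) and Egln3 (-1.0052) on the lower. Just outside lay Ccn3 (0.9986), Ccl7 (0.9974), Zfp319 (-0.9997) and Calml4 (-0.9986).

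**Figure D1:**
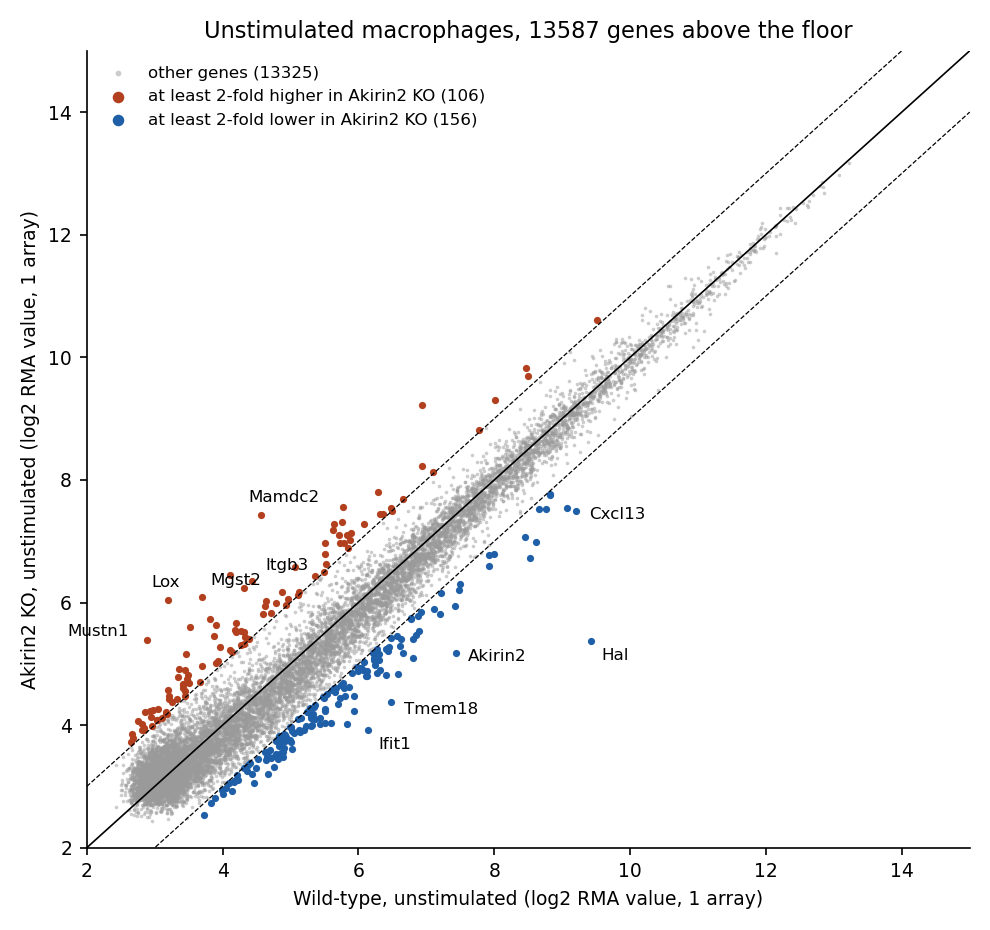
Log2 RMA value of each of 13587 genes on the unstimulated Akirin2 KO array (vertical axis) against the unstimulated wild-type array (horizontal axis), 1 array each. The solid line marks equal values and the dashed lines a 2-fold difference. The 106 genes at least 2-fold higher in KO (red) and 156 at least 2-fold lower (blue) lie outside the dashed lines, with Hal farthest from the cloud.

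The 0 h difference also moved with expression level and with array controls, and the part of these in the results was not tested. Genes were placed in 8 bins of equal size by their mean over the 6 arrays. The median 0 h difference was 0.0079, 0.034 and -0.0039 in the lowest 3 bins, -0.131, -0.205 and -0.172 in the next 3, and -0.113 and -0.063 in the highest. At 2 h and 4 h no bin's median was below -0.035 or above 0.070. The hybridisation spike bioB read 9.70 in wild-type and 10.38 in KO at 0 h, a difference of 0.68 against -0.013 at 2 h and -0.35 at 4 h, and the spikes bioC and bioD moved with it, differing by 0.63 and 0.31 at 0 h. The spike cre lay at or near the highest value of the arrays and could not show such a shift. The Actb 3' probe set exceeded the 5' one by 4.22 in wild-type and 4.64 in KO at 0 h, which is a measure of RNA length, but the like value for Gapdh was 4.33 and 4.34. This Actb excess was larger in KO at every time, by 0.42, 0.34 and 0.27 at 0, 2 and 4 h. For Gapdh the KO excess was larger by 0.015, 0.19 and 0.019. Since a shift of this kind touches whole lists, list medians below are given relative to the median of all genes. This subtracts 1 value, -0.074 at 0 h, at every level. It does not remove a shift that changes with level, such as the lower medians of the middle bins, whose part in the list medians was not tested.

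**Figure D2:**
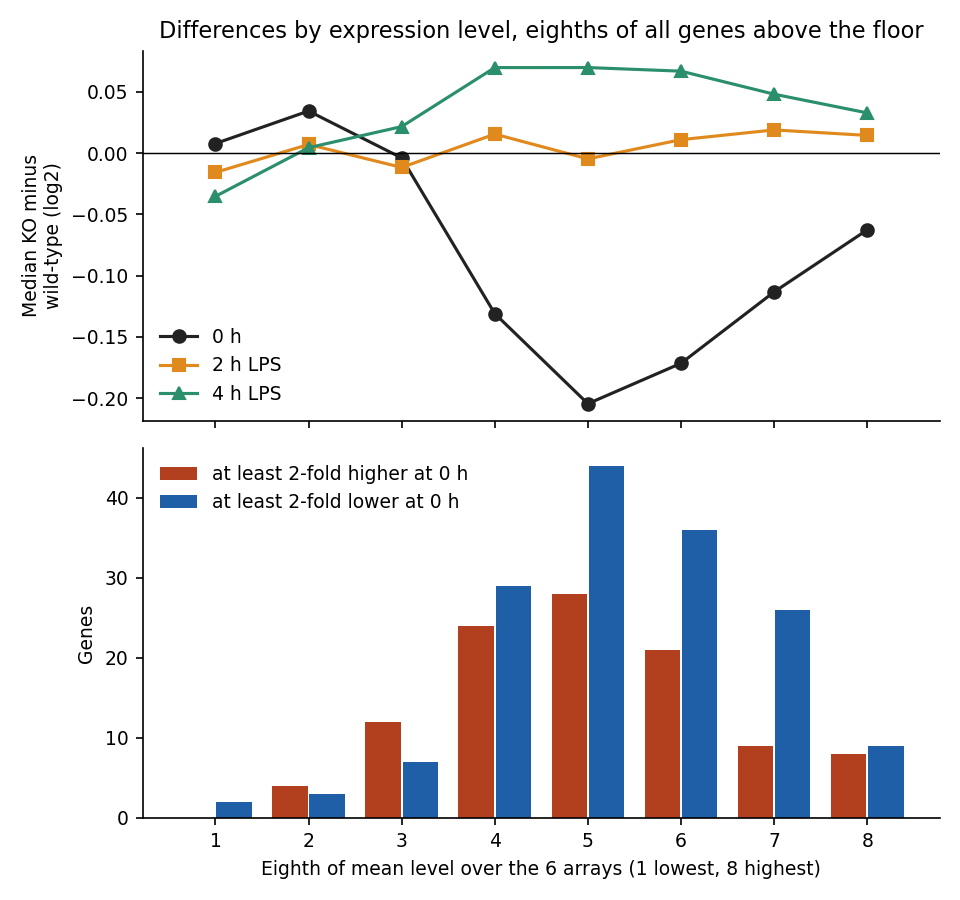
Upper panel, median of KO minus wild-type (log2, vertical axis) in 8 equal bins of mean expression level over the 6 arrays (horizontal axis, lowest to highest) at 0 h, 2 h and 4 h. Lower panel, number of genes at least 2-fold higher or lower at 0 h in each bin. At 0 h the fifth bin had the lowest median, -0.205, and held 28 of the higher and 44 of the lower genes, while at 2 h and 4 h the medians stayed between -0.035 and 0.070.

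Genes higher in unstimulated KO cells were led by Mamdc2, Lox, Mustn1, Mgst2, Bcat1 and Bex1. Mamdc2, a secreted protein with MAM domains, read 4.57 in wild-type and 7.44 in KO, a difference of 2.87. Lox, the lysyl oxidase that cross-links collagen and elastin, read 3.20 and 6.05, a difference of 2.84. Mustn1, a small nuclear protein first known from muscle and bone, read 2.89 and 5.39, a difference of 2.50. In wild-type cells Lox lay near the floor of 3.18 and Mustn1 below it, so these values compare a detected level with one at background. Of the 106 higher genes, 20 were below the median of the wild-type array.

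Mgst2, a microsomal glutathione transferase that can also form leukotriene C, read 3.70 in wild-type and 6.08 in KO (2.39). Bex1, an adaptor protein of the brain-expressed X-linked family, was well above background on both arrays, at 6.94 and 9.22 (2.28). Itgb3 encodes the integrin beta chain of the vitronectin receptor and read 4.44 and 6.35 (1.91, or 0.92 with the mean of its probe sets). Hmga2, an architectural chromatin protein of embryonic and proliferating cells, read 5.77 and 7.56 (1.80), and its other probe sets differed by 1.49 and 1.47. Other probe sets of Lox differed by 0.29 and 0.67, with levels near background.

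Several of the leading genes rested on 1 probe set. Bcat1, the cytosolic aminotransferase of branched-chain amino acids, read 4.11 and 6.45 (2.34), and Slco4a1, an organic anion transporter, 3.52 and 5.60 (2.08). Without probe sets whose names mark possible cross-hybridisation or shared transcripts, these differences were 0.068 and 0.028, from probe sets near background. Under the same setting the difference of Neo1 (the receptor neogenin) went from 1.92 to 0.81, that of Wwc1 (a regulator of Hippo signalling) from 1.58 to 0.18, and that of Ciapin1 (an iron-sulphur cluster assembly factor) turned from 1.73 to -0.0023. With the mean of probe sets Bcat1, Neo1, Wwc1 and Ciapin1 differed by 0.89, 0.51, 0.50 and 0.41. Met, the receptor for hepatocyte growth factor, read 5.64 and 7.28 (1.64, or 0.77 with the mean of its probe sets), and AA467197 read 4.31 and 6.24 (1.93). Cldn23, a claudin, read 3.46 and 5.17 (1.71).

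Among genes lower in unstimulated KO cells Hal stood apart. Hal encodes histidine ammonia-lyase, the first enzyme of histidine breakdown, and it read 9.42 in wild-type and 5.37 in KO, 6.04% of the wild-type level and a 16.6-fold difference. Its difference of -4.05 exceeded that of Akirin2 (-2.25), and at 2 h and 4 h it was -4.42 and -3.92. No other probe set of Hal was above the floor.

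Next in size was Ifit1, an interferon-induced protein that binds viral RNA, at 6.14 in wild-type and 3.92 in KO (-2.23). Tmem18 read 6.48 and 4.38 (-2.10). Kazald1, a secreted protein of the insulin-like growth factor binding protein family, read 5.83 and 4.02 (-1.81). Ifi27l2a, another interferon-stimulated gene, read 8.53 and 6.72 (-1.81), so its KO level stayed well above background. Cxcl13, which attracts B cells and is made by peritoneal macrophages, read 9.21 and 7.50 (-1.71), and Cxcl14, a chemokine of epithelia and myeloid cells, 6.80 and 5.10 (-1.70).

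The remaining genes of the lowest 15 were of varied function. H2aw, a histone variant gene, differed by -1.75, Ahi1, which encodes the ciliary protein jouberin, by -1.71, and Stfa3, a stefin that inhibits cysteine proteases, by -1.64. Adgre4, an adhesion receptor of the F4/80 family, differed by -1.59, the metalloproteinase gene Mmp23 by -1.57, Slpi, an inhibitor of neutrophil elastase, by -1.53, and Sec14l1 by -1.48. With the mean of all probe sets the differences of Ahi1, Adgre4, Mmp23 and Sec14l1 were -0.89, -0.81, -0.77 and -0.80. Of the 156 lower genes, 16 were below the median of the KO array at 0 h.

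**Figure D3:**
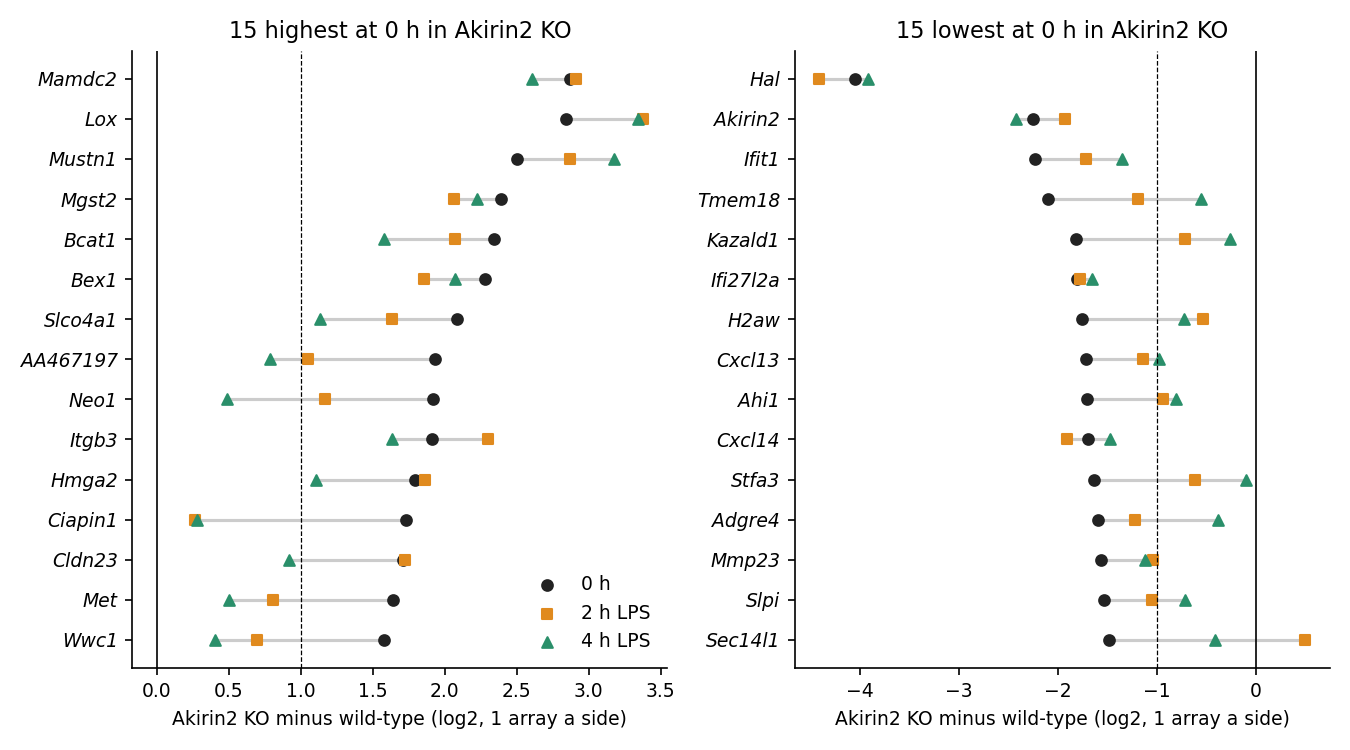
KO minus wild-type (log2, 1 array a side, horizontal axis) at 0 h (circles), 2 h (squares) and 4 h (triangles) for the 15 genes with the highest and the 15 with the lowest 0 h difference (vertical axis). The dashed line marks 2-fold. Lox and Mustn1 differed more at 2 h and 4 h than at 0 h, Ciapin1 differed by 0.26 and 0.28 later, and Sec14l1 was the gene whose 2 h difference, 0.50, had the other sign.

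Interferon-stimulated genes were lower in KO cells before any LPS was added. Type I interferon acts through its receptor, STAT proteins and IRF9 on a response element upstream of these genes, and resting macrophages hold them at a tonic level. Of 48 measured genes of the list, 41 were below 0, 7 were at least 2-fold lower and 0 at least 2-fold higher, and the median difference was -0.37, or -0.30 relative to all genes. Over all genes 60.0% were below 0, 1.15% were 2-fold lower and 0.78% 2-fold higher. The 7 were Ifit1, Ifi27l2a, Rtp4, Ifit2, Gbp2, Oasl2 and Slfn1. With centred arrays or level centring 3 of 48 and with repeated quantile normalization 4 of 48 were 2-fold lower, and the relative median was between -0.33 and -0.23 over all settings.

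Rtp4, a chaperone of receptors with antiviral activity, read 5.43 in wild-type and 4.02 in KO (-1.41, or -0.74 with the mean of probe sets), Ifit2, a relative of Ifit1, 4.36 and 3.25 (-1.11), and Gbp2, a guanylate-binding protein, 6.00 and 4.89 (-1.11). Oasl2, of the oligoadenylate synthetase family, read 5.15 and 4.12 (-1.04), and Slfn1, a schlafen protein, 4.84 and 3.82 (-1.03). The KO value of Ifit2 lay at the floor of that array, 3.23. Close to the limit were Usp18, the protease that removes ISG15 (-0.98), Rsad2, which encodes viperin (-0.95), and Irf9, the DNA-binding subunit of the interferon-activated complex (-0.95). Other members of the pathway did not share the size: Ifi204 differed by -0.02, Oasl1 by -0.02, Ddx58 by -0.01, Ifit3 by 0.07, and Eif2ak2, the kinase PKR, by 0.50.

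The 250 bases upstream of each gene start in the RefSeq promoter table (build GRCm38.p6) were searched on both strands for the core of the interferon-stimulated response element, GAAANNGAAA. It occurred in 15 of the 36 list genes with an entry (41.7%) and in 936 of all 27025 genes (3.46%). Among the genes 2-fold lower at 0 h it was found in 8 of 125 (6.4%), and among those 2-fold higher in 6 of 74 (8.11%). The 120 bases before the start of Ifit1 (chr19:34640769-34640888, plus strand) and Gbp2 (chr3:142620543-142620662, plus strand) are shown because both genes were 2-fold lower and carry the core, printed in capitals and read here from the opposite strand as TTTCNNTTTC. A match is a description of letters and not a shown binding site.
Ifit1: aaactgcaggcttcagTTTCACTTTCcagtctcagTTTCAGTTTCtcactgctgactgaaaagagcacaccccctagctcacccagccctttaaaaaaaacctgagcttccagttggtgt
Gbp2: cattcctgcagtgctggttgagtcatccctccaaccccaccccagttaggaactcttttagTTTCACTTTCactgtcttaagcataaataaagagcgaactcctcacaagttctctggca

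Enzymes of cholesterol synthesis were also lower in KO cells. The pathway runs from acetyl-CoA through mevalonate and squalene to cholesterol, and its genes are induced together by the factor SREBP2 when sterol is low. Of 20 measured members 17 were below 0, 5 were at least 2-fold lower and 0 higher, and the median difference was -0.53, or -0.46 relative to all genes, again beside 60.0% below 0, 1.15% 2-fold lower and 0.78% 2-fold higher over all genes. Idi1, the isomerase of isopentenyl diphosphate, read 6.66 in wild-type and 5.17 in KO (-1.48), and Cyp51, the lanosterol demethylase, 5.94 and 4.47 (-1.47). Fdft1, squalene synthase, read 6.93 and 5.85 (-1.08), Stard4, a sterol carrier, 4.92 and 3.84 (-1.08), and Mvd, the mevalonate diphosphate decarboxylase, 4.79 and 3.74 (-1.05). Other steps were lower by less than 2-fold, with Sqle at -0.87, Hsd17b7 at -0.84, Msmo1 at -0.56 and Hmgcs1, at a high level of 10.97 and 10.44, at -0.53. The last enzyme, Dhcr7, differed by 0.24.

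The count for this list depended on the setting more than its direction did. With centred arrays 2 of the 20 were 2-fold lower, with the mean of probe sets 1, and without possibly cross-hybridising probe sets 2. With the mean of probe sets Cyp51, Fdft1 and Stard4 differed by -0.65, -0.63 and -0.41. Without possibly cross-hybridising ones the differences of Idi1 and Fdft1 were -0.93 and -0.64, and the relative median of the list was -0.27. Over all settings the relative median lay between -0.49 and -0.27. The genes of sterol export and lipid handling had no such shift, with a relative median of 0.058 over 20 members and 10 of them below 0. In that list Apoe, the apolipoprotein that carries exported cholesterol, read 8.83 and 7.76 (-1.07) and Scd2, a fatty acid desaturase, 5.67 and 4.61 (-1.06), both short of 2-fold with centred arrays, and Scd2 at -0.38 with the mean of probe sets.

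The CCAAT box, which the factor NF-Y binds beside SREBP sites in this pathway, was searched in the same 250 bases on both strands as CCAAT, a motif that does not overlap the interferon core in letters. It occurred in 16 of the 16 cholesterol synthesis genes with an entry, in 14 of 36 interferon-stimulated genes (38.9%) and in 10133 of all 27025 genes (37.5%). Among genes 2-fold lower at 0 h it was in 48 of 125 (38.4%), close to the share over all genes. The 120 bases before the start of Idi1 (chr13:8885486-8885605, plus strand) and Cyp51 (chr5:4104698-4104817, minus strand), the list's largest differences, are shown with CCAAT or its complement ATTGG in capitals.
Idi1: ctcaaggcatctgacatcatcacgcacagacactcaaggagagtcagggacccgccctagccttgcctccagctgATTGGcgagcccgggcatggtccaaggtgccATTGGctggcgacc
Cyp51: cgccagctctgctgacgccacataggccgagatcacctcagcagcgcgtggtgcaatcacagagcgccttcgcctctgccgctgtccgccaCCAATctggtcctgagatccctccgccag

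Chemokines differed in both directions. Of 24 measured, 4 were at least 2-fold lower and 1 higher, and the relative median was -0.17. The shares over all genes, for this list and those below, were 1.15% lower, 0.78% higher and 60.0% below 0. Beside Cxcl13 and Cxcl14, Ccl5, an LPS-inducible attractant of T cells, read 5.71 and 4.34 (-1.36), and Ccl24, an eotaxin of alternatively activated macrophages, 4.90 and 3.62 (-1.28). Ccl3 was higher in KO, at 6.32 in wild-type and 7.44 in KO (1.12), and the monocyte attractants Ccl7 and Ccl2 differed by 0.997 and 0.70, the first just short of the limit. With centred arrays 3 chemokines were 2-fold higher. Ccl3 at 2 h and 4 h differed by -0.21 and -0.39.

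Inflammatory cytokines gave no 2-fold difference at 0 h in 20 measured genes. Tnf read 4.95 in wild-type and 4.19 in KO (-0.75), Il1a 3.65 and 2.91 (-0.74) and Il1b 3.59 and 2.99 (-0.60). Il12a, a subunit of interleukin 12, went the other way at 2.75 and 3.48 (0.73), both near background. Il6 read 3.20 and 3.12 and Il12b 3.06 and 2.93, all near background, and 10 of the 20 were below the array median in KO. Ifnb1, the interferon beta gene, read 2.88 and 3.0, so that no difference in its RNA was detectable on these arrays. Of 14 NF-kB factors and feedback genes and 21 Toll-like receptor signalling genes, 0 reached 2-fold. In these lists Rel differed by 0.70, Nfkbie by -0.68, Irf5 by -0.66, Cd14 by -0.57 and Tlr2 by -0.45.

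Immediate-early genes had 2 of 25 members at least 2-fold lower and 0 higher, against 1.15% and 0.78% of all genes. Their relative median was -0.21. Egr1, a zinc finger factor induced by serum and adhesion, read 7.93 in wild-type and 6.59 in KO (-1.34), and Ier3, an early response gene of stress and survival, 4.79 and 3.52 (-1.27). Fosl1, an AP-1 subunit, lay just short of the limit at -0.996, and Ier5 differed by 0.63. Of the 18 measured SWI/SNF subunits, the remodelling complex that Akirin2 is known to bring to promoters, 0 reached 2-fold. Smarca2, an ATPase of the complex, differed by 0.59 and Pbrm1 by -0.72, and Smarca4, the other ATPase, by -0.36.

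Amino acid metabolism included Hal and Bcat1, described above. Of 24 measured genes 3 were 2-fold lower and 1 higher, against 1.15% and 0.78% of all genes, with a relative median of -0.22. Asns, asparagine synthetase, read 7.48 in wild-type and 6.21 in KO (-1.27), and Phgdh, the first enzyme of serine synthesis, 6.28 and 5.25 (-1.03), which was -0.87 with centred arrays and -0.37 with the mean of probe sets. Another Phgdh probe set at a similar level read 5.70 and 5.62 (-0.08). Among 20 genes of glutathione and the NRF2 response, Mgst2 was higher and Gclm, the modifier subunit of glutamate-cysteine ligase, lower at 6.11 and 4.80 (-1.31). Gstm2, a cytosolic glutathione transferase, differed by 0.86, or 1.02 with centred arrays.

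Matrix and remodelling genes were lower as a list while containing Lox. Of 29 measured genes, 20 were below 0, 3 were at least 2-fold lower and 1 was higher. The shares over all genes were 60.0%, 1.15% and 0.78%. The relative median was -0.39, or -0.18 with the mean of probe sets. Mmp13, a collagenase, read 6.80 in wild-type and 5.41 in KO (-1.39), Col3a1, a fibrillar collagen chain, 6.84 and 5.47 (-1.38), and Serpinb2, an inhibitor of plasminogen activators, 5.91 and 4.85 (-1.06). Mmp13 then differed by 0.16 and 0.19 at 2 h and 4 h. Serpinb2 was short of 2-fold with centred arrays (-0.90), and Col3a1 without possibly cross-hybridising probe sets (-0.90). Of 18 integrins Itgb3 alone was 2-fold apart, with Itgb7 at 0.77 and Itgax, the CD11c chain, at 0.75.

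Collagen genes are made by cells other than macrophages, and markers of those cells were read beside them. The marker list shares Col3a1 with the matrix list, so the lists are not independent. Of 15 measured markers of mesothelium and fibroblasts 12 were below 0 and 1, Col3a1, was 2-fold lower. Of the 15, 2 were below the array median in wild-type and 6 in KO at 0 h. Over all genes 60.0% were below 0 and 1.15% were 2-fold lower. Col1a1 read 8.44 and 7.79 (-0.65), Pdgfra 6.18 and 5.25 (-0.94), Wt1 4.89 and 4.13 (-0.76), and the mesothelial marker Msln lay near background at 3.26 and 2.85. The relative median was -0.46, or -0.14 with the mean of probe sets, and the summed level of the 15 was 9.86 in wild-type and 9.19 in KO on the log2 scale. The part of such cells in the matrix differences was not tested.

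Heat shock genes also differed both ways, with 1 of 12 higher and 2 lower, against 0.78% and 1.15% of all genes. Hsph1, a partner of the HSP70 chaperones, was well above background on both arrays, at 9.52 and 10.60 (1.08), Hspa1b, an inducible HSP70, read 6.23 and 5.06 (-1.17), and Hspb1, a small chaperone, 6.08 and 5.04 (-1.04). The difference of Hspa1b was 0.10 without possibly cross-hybridising probe sets and -0.16 with the mean of probe sets, and those of Hsph1 and Hspb1 with the mean of probe sets were 0.75 and -0.97.

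Most macrophage and monocyte markers were lower in KO, few of them by 2-fold, beside 60.0% of all genes below 0. Of the 18 pan-macrophage markers 17 were below 0 with a relative median of -0.20, and Aif1, a cytoskeletal protein of macrophages, was 2-fold lower at 5.01 and 3.73 (-1.28). The opsonin receptor Fcgr1 differed by -0.97, and the complement genes C1qa and C1qc by -0.84 and -0.82 while C1qb differed by -0.13. Of 18 resident peritoneal macrophage markers 16 were below 0 and 2, Cxcl13 and Serpinb2, were 2-fold lower, with a relative median of -0.34. Timd4, a receptor for dying cells, differed by -0.85 and Vsig4, a complement receptor, by -0.80. Mfge8, a bridge to dying cells described further below, was at least 2-fold higher. Of 11 class II antigen presentation genes H2-DMa, a peptide-exchange chain, was 2-fold lower at 6.44 and 5.21 (-1.23), whereas H2-Aa and H2-Eb1 differed by -0.30 and -0.35. Of 12 markers of monocytes and small peritoneal macrophages 10 were below 0 and 0 were 2-fold apart, with a relative median of -0.39. In that list the receptor Ccr2 read 8.37 and 7.47 (-0.90).

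Many listed markers of other blood cells were below the floor or had no probe set of their own. Above the floor were 6 of 13 neutrophil markers, with a summed level of 8.49 in wild-type and 8.54 in KO, 2 of 8 eosinophil markers (4.46 and 4.58), 6 of 9 mast cell markers (5.87 and 5.95), 7 of 14 T and NK cell markers (6.17 and 6.39) and 8 of 11 B cell markers (6.81 and 7.26). The floor could be reached on any of the 6 arrays, and 4 of the 6 mast cell markers were below the array median on each 0 h array. Sums of such lists therefore hold much background. Only Ebf1 among these 5 lists was 2-fold apart in the deposited scaling. It encodes a B cell factor and read 4.27 and 5.54 (1.27), or -0.041 without possibly cross-hybridising probe sets. Of the 8 B cell markers 5 were above 0 and 3 below. Their relative median was 0.31 at 0 h, and -0.28 and -0.33 at 2 h and 4 h. Igll1 differed by 0.79, Cd79a by 0.36 and Cr2 by 0.29 at 0 h, while the surface marker Ms4a1 read 4.59 on both. The part of B cells in the results was not tested. Cd28, a costimulatory receptor of T cells, read 3.69 and 4.67 (0.98), which was 1.14 with centred arrays, 1.10 with level centring and 1.08 with repeated quantile normalization. It differed by 1.76 and 0.83 at 2 h and 4 h and was called higher after LPS (1.29, limma adjusted p = 0.00246). Of the 7 T and NK cell markers 4 were below 0 and 3 above at 0 h, with a relative median of 0.017, and 5 were below the array median in KO. Cd2 differed by -0.33 at 0 h, and Cd3e by 0.22 at 0 h and by -0.013 and -0.27 later. The part of T cells in the results was not tested. The neutrophil gene S100a8 read 7.61 and 7.74. Of dendritic, endothelial and erythroid markers 3 of 9, 4 of 8 and 1 of 6 were above the floor and 0 were 2-fold apart, with Itgax at 0.75, Vwf at 0.54 and Slc4a1 at -0.23. On each 0 h array 3 of the 4 endothelial markers and Slc4a1 were below the array median.

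No member reached 2-fold in the lists of lysosome (26 genes), proteasome (31), ribosomal proteins (16), respiratory chain (26), glycolysis (15) and complement and Fc receptors (18). Their relative medians were -0.011, 0.019, 0.0088, -0.060, -0.022 and -0.22, so that only the last of these 6 lay more than 0.1 from the median of all genes, and those of lysosome, proteasome, ribosomal proteins and glycolysis changed sign under other settings. Chemokine receptors (10) and scavenger and lectin receptors (21) also had no member past 2-fold, with Fpr2, a formyl peptide receptor, at -0.84 and the mannose receptor gene Mrc1 at -0.48. Of 16 genes of alternative activation Ccl24 was lower, and of 30 cell cycle genes Mcm7, a helicase subunit, was lower at 5.64 and 4.61 (-1.03, or -0.87 with centred arrays and -0.39 with the mean of probe sets). Of the 25 function lists, 21 had a median below that of all genes, and the part of expression level in this count was not tested.

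**Figure D4:**
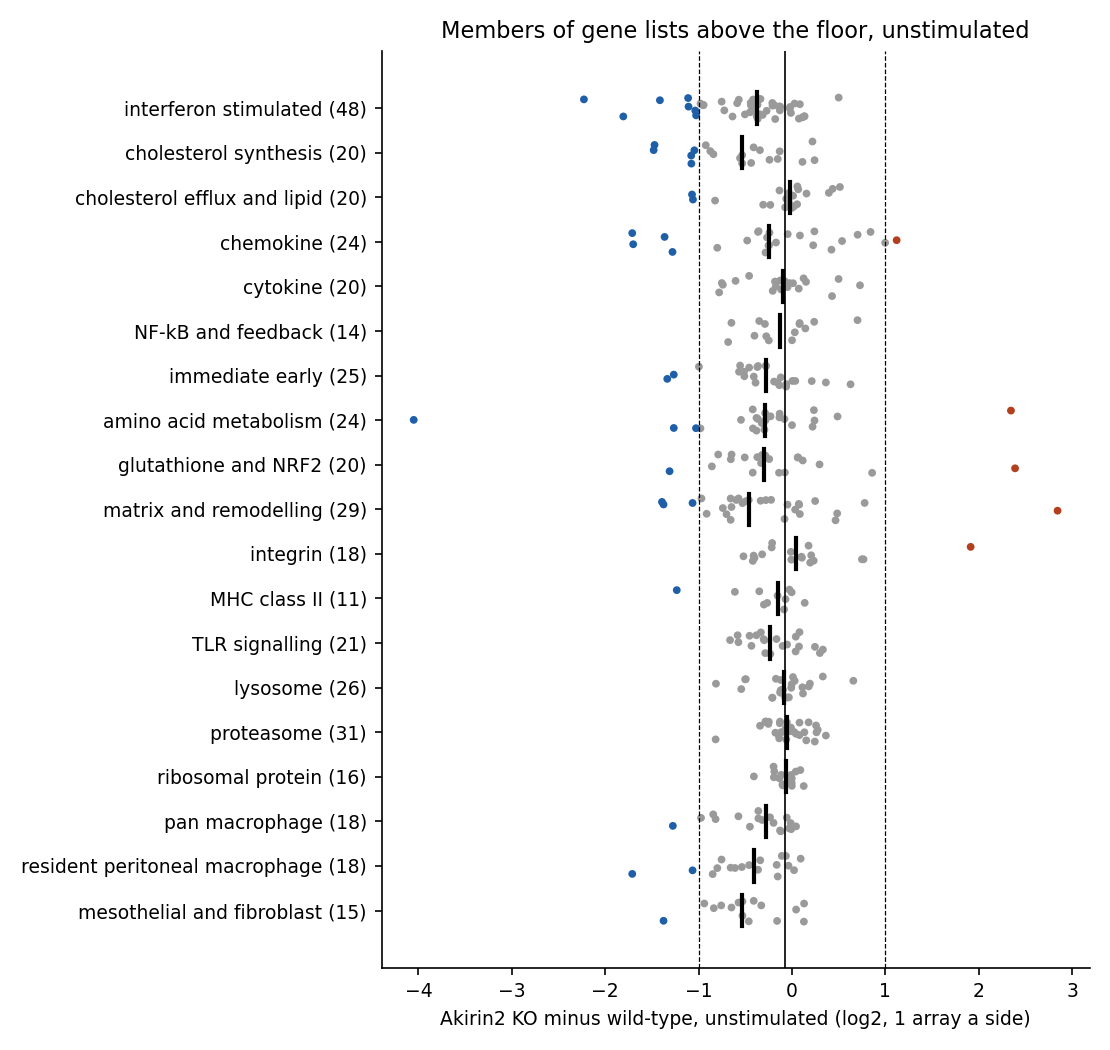
KO minus wild-type at 0 h (log2, 1 array a side, horizontal axis) for members of 19 gene lists above the floor (vertical axis, number of genes in brackets). Each point is a gene, red at least 2-fold higher and blue at least 2-fold lower, with points spread vertically for legibility. Black bars mark list medians, the solid line the median of all genes (-0.074) and the dashed lines 2-fold. The interferon-stimulated and cholesterol synthesis lists hold 7 and 5 blue points and no red one.

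The arrays taken after LPS share no array with the 0 h comparison and show which differences were present again. The larger Actb 3' excess of KO was present on them too, and its part in what recurred was not tested. Of the 106 higher genes, 74 were higher at both 2 h and 4 h, 16 were lower at both and 16 were mixed. Those 74 are 69.8%, against 33.5% of all 13587 genes higher at both times. At 2-fold, 30 were higher again at 2 h, 24 at 4 h and 19 at both. Of the 156 lower genes 117 were lower at both times, 12 higher at both and 27 mixed. Those 117 are 75%, against 28.3% of all genes lower at both times. At 2-fold, 33, 26 and 18 were lower again at 2 h, 4 h and both. No gene was 2-fold apart at 0 h and 2-fold apart the other way later. The median difference of the higher genes at 0, 2 and 4 h was 1.21, 0.58 and 0.44, and that of the lower genes -1.17, -0.52 and -0.44. Since the genes were chosen on their 0 h values, the smaller later medians are a description.

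A limma model over all 6 arrays had terms for time, for genotype at 0 h and for genotype over the LPS arrays, and left 1 residual degree of freedom beside a prior of 11.5. Its Benjamini-Hochberg adjusted p sets the size of a difference against an error. That error comes from how far the 2 h and 4 h differences lay apart, pooled largely over all genes. It holds no spread between mice and no spread at 0 h. At an adjusted p under 0.05 it called 370 genes (2.72%) higher and 294 (2.16%) lower in KO after LPS. Of the 106 genes higher at 0 h, 47 were called higher and 1 lower, and of the 156 lower at 0 h, 67 were called lower and 1 higher. Lox had the largest estimate among the genes of this comparison that were higher, 3.36 (SE 0.14, limma adjusted p = 6.87e-08). At 2 h and 4 h it read 4.03 and 5.26 in wild-type against 7.41 and 8.60 in KO, above its 0 h value in both genotypes. Hal was lower by the same model, -4.17 (SE 0.16, limma adjusted p = 3.58e-08).

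Differences that kept at least 2-fold at all 3 times included Mamdc2, Mustn1, Mgst2, Bex1 and Itgb3 beside Lox, and Ifi27l2a, Cxcl14, Rtp4 and Ifit1 beside Hal and Akirin2. Mamdc2 read 7.44, 7.44 and 7.01 in KO at 0, 2 and 4 h against 4.57, 4.53 and 4.41 in wild-type, with little movement under LPS. Ifi27l2a likewise read 8.53, 8.20 and 8.40 in wild-type against 6.72, 6.43 and 6.75 in KO. Rtp4 read higher after LPS in both, at 6.79 and 9.31 in wild-type against 4.89 and 7.82 in KO, with differences of -1.41, -1.91 and -1.49. In the limma model the later differences were 2.76 for Mamdc2, -1.71 for Ifi27l2a and -1.70 for Rtp4. These genes were chosen for being at least 2-fold apart after LPS, so a test of the same values would add no support.

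The interferon-stimulated list was lower at all times, with medians relative to all genes of -0.30, -0.53 and -1.01 at 0, 2 and 4 h, and 31 of its 48 members were called lower after LPS by limma and 0 higher. Gbp2b, an interferon-induced guanylate-binding protein that is not in the list, was higher in KO at 0 h (2.65 and 3.73, a difference of 1.08) and was called higher after LPS (2.33, limma adjusted p = 5.02e-06). The cholesterol synthesis list had relative medians of -0.46, -0.48 and -0.63, and 9 of its 20 members were called lower and 0 higher. Cyp51 differed by -1.19 at both later times (limma adjusted p = 0.000651) and Idi1 by -0.95 and -0.88 (0.00321). The immediate-early list had relative medians of -0.21, -0.20 and -0.10, with 4 of 25 members called lower and 3 higher. The same model called 2.16% of all genes lower and 2.72% higher after LPS. No difference between lists or times was tested for these medians.

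**Figure D5:**
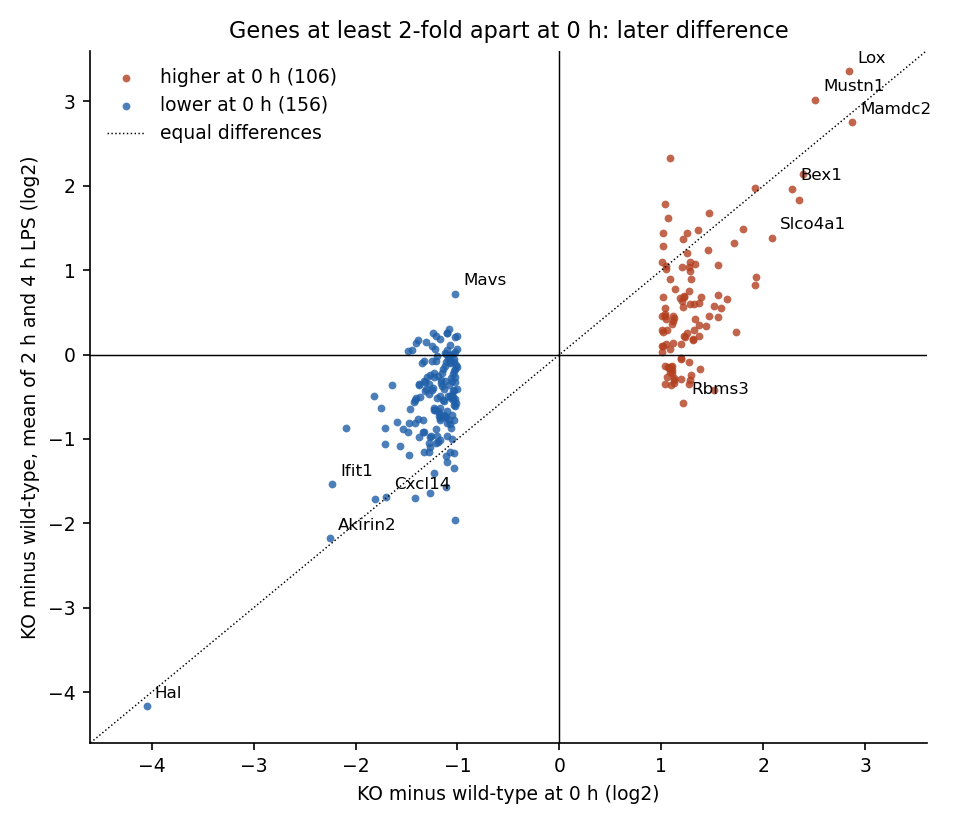
KO minus wild-type at 0 h (log2, horizontal axis) against the mean of the differences at 2 h and 4 h of LPS (log2, vertical axis) for the 106 genes at least 2-fold higher (red) and the 156 at least 2-fold lower (blue) at 0 h. The dotted line marks equal differences. Mamdc2, Akirin2 and Hal lie near the line and Lox and Mustn1 above it. At 4 h the difference was smaller than at 0 h for 94 of the red and 142 of the blue genes, and Mavs, Rbms3 and Orly are among those across 0.

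Whether a 0 h difference was unlike the later one was tested as a contrast of the same limma model. It called 4 genes (0.0294%), 3 with a more positive difference at 0 h (0.0221%) and 1 with a more negative one (0.00736%), while 1739 genes had an unadjusted p under 0.05. Rbms3, an RNA-binding protein, read 4.32 and 5.53 at 0 h (1.21) and differed by -0.64 and -0.50 later (contrast 1.78, SE 0.25, limma adjusted p = 0.0447). With the mean of probe sets its 0 h difference was 0.20, and another Rbms3 probe set above the floor read 4.75 and 4.41 (-0.34). Orly read 6.30 and 7.81 (1.51) and differed by -0.41 and -0.42 later (contrast 1.93, limma adjusted p = 0.0263), and its 0 h difference was 0.72 with the mean of probe sets. Mavs, the mitochondrial adaptor of cytosolic RNA sensing, read 5.48 and 4.46 (-1.03) and differed by 0.84 and 0.61 later (contrast -1.75, limma adjusted p = 0.0461), but at 0 h by -0.44 without possibly cross-hybridising probe sets. Ereg, the growth factor epiregulin, was not 2-fold apart at 0 h and read 3.33 and 3.92 (0.59). At 2 h and 4 h it differed by -1.34 and -1.36 (contrast 1.94, SE 0.25, limma adjusted p = 0.0263). The number of calls in this contrast went from 0 to 101 on the higher side and 0 to 155 on the lower over the other settings, and with no floor, a stricter floor, centred arrays or no possibly cross-hybridising probe sets it was 0 in both directions.

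Of the genes 2-fold apart at 0 h, 8 of the 106 higher and 24 of the 156 lower differed by under 0.25 in size at both later times. The share of all genes with later differences this small was not counted, so these counts are a description. The largest among them were Apod (1.31), a lipid-binding lipocalin, Gm3715 (1.27), Ntmt1 (1.19), an amino-terminal methyltransferase, Adamts19 (1.12) and Grin2b (1.09) on the higher side. On the lower side they were Cbarp (-1.45), Mmp13 (-1.39), Tmem250-ps (-1.35), Cbr3 (-1.32), a carbonyl reductase, and Cdk14 (-1.25), a cyclin-dependent kinase. With the mean of probe sets Apod, Ntmt1 and Grin2b differed by 0.81, 0.40 and 0.37, and Cbarp and Cdk14 by -0.74 and -0.43. For none of these 10 did the contrast of 0 h against the later times pass an adjusted p of 0.05 in limma, with Mmp13 closest at 0.052. A difference confined to unstimulated cells is therefore not shown for them.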

How the data were processed

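The 6 arrays hold RNA of thioglycollate-elicited macrophages, amplified and biotin-labelled with the NuGEN Ovation system per the labels' protocols. The deposited values are log2 expression per probe set, made by the authors with RMA per the submitters' processing notes. This method subtracts background, brings the arrays to common quantiles and fits 1 value per probe set. The RMA version is not given in the sources used here, and neither is the probe definition. Over 45101 probe sets the deposited log2 values lay between 2.26 and 14.2, and array medians between 3.18 and 3.23. Precision is limited by the number of arrays, which have no depth of reads.

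The supplied platform annotation gave 1 symbol to 34958 probe sets, several to 932 and none to 9211, and 34754 matched RefSeq genes of GRCm38.p6, with 0 symbols changed. Differences at 0 h were computed between single arrays, and 2-fold means a log2 difference of 1 or more. The limma 3.58.1 model (R 4.3.3; lmFit, eBayes, Benjamini-Hochberg at 0.05) dropped and imputed no sample, and it was tested on simulated data. Promoter letters came from the RefSeq promoter table of GRCm38.p6.

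The genes named are Akirin2 with Akirin1 and Lyz2, the 15 largest 0 h differences each way, the 6 each way that were largest at all times, the 5 each way with later differences under 0.25, up to 4 members a list with the largest differences, and genes called unlike the LPS stage. Other genes named beside a list were chosen after their values were seen. The members, the 38 lists (12 of cell types, 25 of functions and 1 check) and the rule were chosen with earlier results of these data known. Alternatives were a floor at percentile 75 or none, the mean of probe sets, no possibly cross-hybridising probe sets (names ending in s, x or a before the at), quantile normalization again, centred arrays, other sizes and thresholds, trend and robust moderation, and centring by level, which was added after seeing the data. Probe sets without a single gene name stayed out of the gene counts.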

Additional observations from a re-analysis of the deposited data

Results flagged for a closer look

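Probe sets that carry no gene name or several were outside the gene counts, and 6130 of them reached the floor. At 0 h, 109 of these (1.78%) were at least 2-fold higher in KO and 20 (0.326%) at least 2-fold lower, with a median difference of 0.116. Named representative probe sets had 0.78% higher and 1.15% lower with a median of -0.074. At 2 h the unnamed or multiply named probe sets had 18 higher and 13 lower, and at 4 h 12 higher and 14 lower. Their median level over the arrays was 3.29, near background, against 4.30 for the representative probe sets. The part of level and of array quality in this excess at 0 h was not tested.

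For 4 genes the genotype difference at 0 h was unlike that after LPS in the limma contrast, with Benjamini-Hochberg adjustment over all 13587 genes. The contrast was 1.94 for Ereg (adjusted p = 0.0263), 1.93 for Orly (adjusted p = 0.0263), 1.78 for Rbms3 (adjusted p = 0.0447) and -1.75 for Mavs (adjusted p = 0.0461). In each of the 4 the differences at 2 h and 4 h had the sign opposite to that at 0 h. Each rests on 1 array per condition. The SE of these 4 contrasts lay between 0.248 and 0.254, being pooled largely over all genes. It holds no spread between mice or of the 0 h arrays.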

How the results depend on the processing

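No paired analysis was possible because each group has 1 array and the labels give no replicate numbers, and for the same reason no replicate could be left out. The 0 h counts of 106 higher and 156 lower genes became 36 and 66 with the mean of all probe sets, 196 and 85 with arrays centred on the median, 161 and 92 with the difference centred by expression level, 489 and 900 at 1.5-fold, and 14 and 12 at 3-fold. They stayed within 1.5 times with no floor (106 and 156), the 75th percentile floor (89 and 143), no possibly cross-hybridising probe sets (82 and 118) and repeated quantile normalization (145 and 115). The limma counts after LPS, 370 higher and 294 lower, became 222 and 182 without possibly cross-hybridising probe sets and 871 and 624 with trend and robust moderation. The higher count was 176 with centred arrays and 616 at an adjusted p of 0.1. The contrast of 0 h with the LPS stage, 3 and 1 genes, gave 0 and 0 with no floor, with the stricter floor, without possibly cross-hybridising probe sets and with centred arrays, 1 and 0 with the mean of probe sets, 42 and 20 with quantile normalization again, 101 and 155 with trend and robust moderation, and 36 and 44 at an adjusted p of 0.1. The relative median of the mesothelial and fibroblast list was -0.14 with the mean of probe sets, and that of cholesterol synthesis -0.27 without possibly cross-hybridising probe sets. Without those probe sets Ciapin1 (-0.0023), Ebf1 (-0.041) and Hspa1b (0.10) changed sign at 0 h and 8 further named genes were under 2-fold. With the mean of probe sets 29 named genes were under 2-fold, and with either form of centring 10. Apart from what the settings themselves change, the cause was not tested. With 1 array per condition, no value at 0 h has an error, and probe sets near background bound a difference rather than measure it.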

Other observations

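Genes of several further functions were among those 2-fold apart at 0 h and were chosen here after their values were seen. Among the lower genes were Vcam1, a leukocyte adhesion molecule (-1.2), P2rx7, the ATP-gated channel upstream of the inflammasome (-1.21), Notch1 (-1.39), the metallothionein Mt2 (-1.19), Camkk2, a kinase activator of AMPK (-1.23), and the circadian genes Dbp (-1.33) and Usp2 (-1.27). At 2 h and 4 h Vcam1 differed by -0.89 and -1.04 and Camkk2 by -1.36 and -1.45, while Dbp differed by -0.18 and -0.43. Another P2rx7 probe set read 6.02 in wild-type and 5.96 in KO at 0 h (-0.058). Vcam1 read 3.73 and 2.53 at 0 h, the KO value below the floor of that array, 3.23. Its other probe sets, near background, differed by -0.059 and -0.18. Other Camkk2 probe sets differed by -1.51, -0.28 and -0.73 at 0 h, and another Notch1 one by -0.75. Among the higher genes were Mfge8, a bridge to dying cells (1.36), Cd200 (1.29), Sema4d (1.28), the syndecan Sdc1 (1.2) and the transcription factor Dach1 (1.21). Mfge8 differed by 1.36 and 1.59 and Dach1 by 1.45 and 1.30 at 2 h and 4 h. Other probe sets at 0 h differed by -0.068 for Sema4d, 0.090 and -0.23 for Dach1, and 0.80 and 0.97 for Sdc1. Gbp2b, a guanylate-binding protein, was higher in KO at 0 h (1.08) and by 2.14 and 2.52 later, whereas its relative Gbp2 was lower at every time (-1.11, -0.65 and -0.96).

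Where genes had further probe sets above the floor, these did not always repeat the 0 h difference. Of 60 such higher genes, 29 had all other probe sets above 0, 16 had none above 0, and 5 had another at least 2-fold higher. Of 84 such lower genes, 57 had all others below 0, 14 had none below 0, and 9 had another at least 2-fold lower. For comparison, all 10666 non-representative probe sets with a single gene name above the floor had a median 0 h difference of -0.057. Among them 0.478% reached 2-fold upward and 0.525% downward. The part of this median below 0 in the counts for higher and lower genes was not tested.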
